A study of Mus musculus with 3 samples.

Results

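Strongly acetylated sites with weak H3K4me3 are places in the genome of mouse precursor B-cell leukaemia cells where histone H3 acetylated at lysine 27 (H3K27ac) formed a high-scoring peak and histone H3 trimethylated at lysine 4 (H3K4me3) was called there as well, but only with a low score. They were chosen by the scores and positions of the peaks in both lists, as H3K27ac peaks with a score of 1000 or more that shared at least 1 bp with an H3K4me3 peak, where the highest score among all overlapping H3K4me3 peaks was below 200. The rule found 1006 sites among 29468 H3K27ac peaks. The cells were an untreated culture of Bcr-Abl-driven acute lymphoblastic leukaemia of the B lineage, in which a fusion kinase drives growth. Chromatin from them was immunoprecipitated in 3 samples, 1 for H3K27ac, 1 for H3K4me3 and 1 with control IgG, and sequenced. All 3 samples come from the same kind of culture, with no other genotype, treatment or time, and the sources used here do not state whether the culture is 1 clone. The IgG library has no values of its own here.

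H3K27ac is laid down by histone acetyltransferases of the CBP and p300 family and marks active promoters and active enhancers, the distant elements that raise the transcription of a gene. H3K4me3 is placed by methyltransferase complexes of the SET1 and MLL families, is read as a hallmark of active start sites, and is strongest over promoters rich in CpG. Enhancers typically carry monomethylated lysine 4 and little of the trimethylated form, although low H3K4me3 is known at some very active enhancers. The rule used here picks sites with strong H3K27ac and low-scoring H3K4me3, which alone does not class them as promoters or enhancers. Which of the sites are annotated start sites was not analysed here, since no annotation or sequence of mm9, the build of the peak lists, was used. For the same reason no gene is named, no sequence is shown, and the labelled cell type was not checked against marker genes.

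Each score is the authors' own value for a peak. The lists' names carry a p-value limit of 1e-05, and the lowest score of 50.01 in both lists lies just above 50, which is -10 log10 of that limit, but the scale itself is not stated. Scores are tied at 3100 in many peaks, a value called the ceiling here. Depth is unknown and there is 1 library per mark, so no value below has a replicate error and no test between samples was made. Intervals are 95% intervals (exact Clopper-Pearson for shares, order statistics for medians). They cover counting error only and treat peaks as independent, which peaks lying close together are not.

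Strong H3K27ac peaks, meaning those scoring 1000 or more, numbered 13167. Of these, 7.64% were sites with weak H3K4me3. The others were 1165 with intermediate H3K4me3 (highest score from 200 to below 1000), 8741 with strong H3K4me3 (1000 or more) and 2255 without H3K4me3. The weak-H3K4me3 sites thus made up the smallest of the 4 classes. Seen from the other mark, 4045 H3K4me3 peaks scored below 200, and 1064 of them (26.3%) lay on these sites. Another 1112 lay on weaker H3K27ac only, 300 on other strong H3K27ac peaks, and 1569 had no H3K27ac.

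The H3K4me3 scores that chose the sites ranged from 50.01 to 199.91, with a median of 101 and quartiles of 72.4 and 147. Their H3K27ac scores had a median of 2654, and 419 sites stood at or above the ceiling. The H3K4me3 scores showed no break at the limit of 200. Strong H3K27ac peaks numbered 494 at H3K4me3 scores of 50 to 100, 274 at 100 to 150 and 238 at 150 to 200. They then numbered 540 at 200 to 400, 625 at 400 to 1000, 746 at 1000 to 3100 and 7995 at or above the ceiling. On a log axis the counts below the ceiling showed no gap at 200, and the sites are the lower part of a continuous range.

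**Figure D1:**
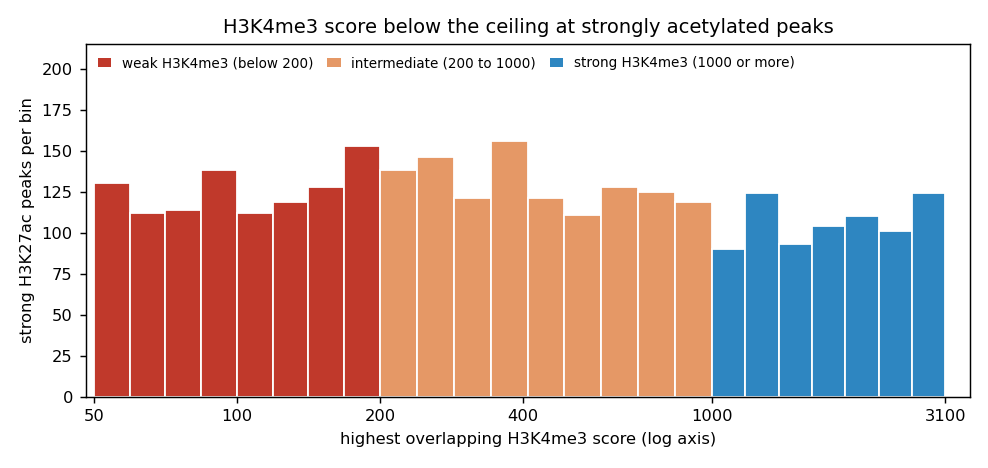
Strong H3K27ac peaks (vertical axis, number per bin) by the highest score of the H3K4me3 peaks that overlap them (horizontal log axis, bins of nearly equal width on that axis). Red bars are the 1006 sites with weak H3K4me3, orange the intermediate and blue the strong class; the 7995 peaks at or above 3100 are not drawn. The bars on either side of 200 are of similar height.

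The sites next to the limits illustrate this. The site with the highest H3K4me3 score inside the rule lay on chromosome 18 (84752609 to 84754978), scored 2800 for H3K27ac and 199.91 for H3K4me3, and was 2370 bp wide. The first peak outside it lay on chromosome 10 (40195515 to 40197863), scored 2312 and 200.06, and was 2349 bp wide. Their H3K4me3 peaks measured 1240 and 886 bp, so the peak just inside the limit was not the narrower one. At the H3K27ac minimum, the site nearest above was on chromosome 12 (70558715 to 70560549) with an H3K27ac score of 1000.4 and an H3K4me3 score of 102.73. The nearest peak below was on chromosome 7 (20429004 to 20431510) with an H3K27ac score of 998.36 and an H3K4me3 score of 55.45.

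At a typical site, a short stretch of H3K4me3 sat inside a broad block of acetylation. The sites spanned a median of 3371 bp of H3K27ac (interval 3263 to 3463 bp, quartiles 2588 and 4698 bp), and the strongest H3K4me3 peak on them spanned a median of 817 bp (interval 801 to 834 bp). H3K4me3 covered a median of 24.6% of the acetylated length (interval 23.6 to 25.5%), and under 50% at 962 of the 1006 sites. In the strong-H3K4me3 class the H3K4me3 peak was 2592 bp wide and covered 94.9% of the H3K27ac peak. The intermediate class stood between, with 1353 bp and 43.4%. A low score and a narrow peak go together in this kind of list: across the 1006 sites Spearman's rho between H3K4me3 score and H3K4me3 width was 0.71. The narrowness and the low coverage therefore follow in part from the choice of the sites.

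The H3K27ac width was not part of the rule, but within the list it rises with the H3K27ac score that was (rho 0.74 over the 1006 sites). Sites with weak H3K4me3 were wider than strong-H3K4me3 peaks, whose median was 2577 bp (interval 2552 to 2604 bp), although 41.7% of the sites and 62.1% of the strong-H3K4me3 peaks stood at or above the H3K27ac ceiling. They were of about the same width as strong H3K27ac peaks without H3K4me3 (median 3249 bp, interval 3188 to 3321 bp) and as the intermediate class (median 3307 bp, interval 3201 to 3444 bp). At or above the H3K27ac ceiling were 28.9% of the peaks without H3K4me3 and 51.8% of the intermediate class. These widths were therefore compared at unlike H3K27ac scores. A width of 4000 bp or more was reached by 35.6% of the sites (interval 32.6 to 38.6%), by 31.2% of the peaks without H3K4me3 (interval 29.3 to 33.2%) and by 19.4% of the strong-H3K4me3 peaks (interval 18.6 to 20.2%). Among the sites themselves, H3K27ac width showed almost no relation to the H3K4me3 score (rho 0.02). The 494 sites with H3K4me3 below 100 and the 512 sites at 100 or more had median H3K27ac widths of 3368 and 3372 bp. The rule cut these scores at 200, so neither value describes the relation over a wider range. Above the limit, median widths were 3284 bp at scores of 200 to 400 and 3352 bp at 400 to 1000. They were 3066 bp at 1000 to 3100 and 2547 bp at or above the ceiling.

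**Figure D2:**
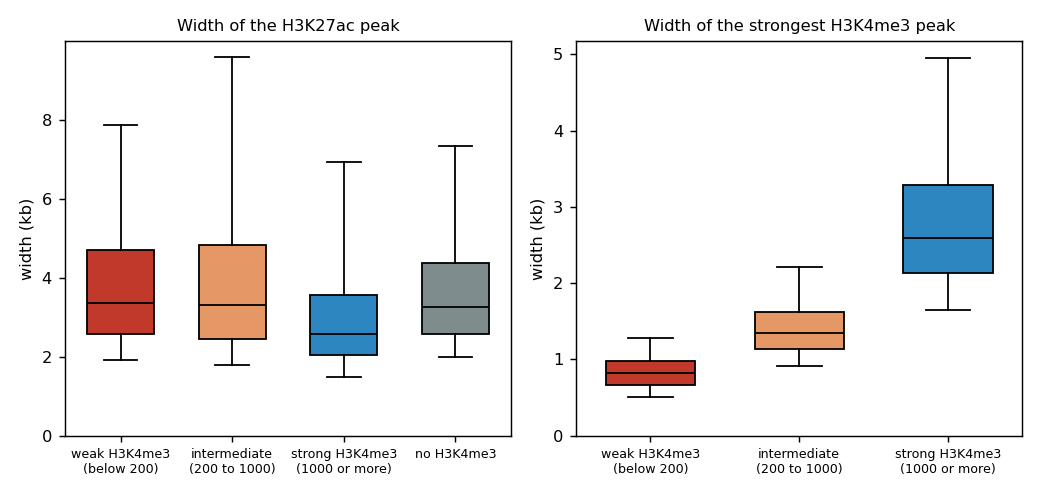
Width in kb of the H3K27ac peak (left) and of the strongest overlapping H3K4me3 peak (right) in each class of strong H3K27ac peaks. Boxes span the quartiles with a line at the median, and whiskers reach the 5th and 95th percentiles. The weak-H3K4me3 sites (red) match the classes without and with intermediate H3K4me3 on the left, with a median of 3371 bp, and have the narrowest H3K4me3 peaks on the right, with a median of 817 bp.

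The share of strong H3K27ac peaks that were weak-H3K4me3 sites was higher among wider peaks up to 8 kb. It was 3.17% (interval 2.50 to 3.97%) below 2 kb, 6.26% from 2 to 3 kb, 9.82% from 3 to 4 kb, 11.2% from 4 to 6 kb and 13.3% (interval 10.7 to 16.3%) from 6 to 8 kb. At 8 kb or more it was 9.21% (interval 6.93 to 11.9%), an interval that overlaps those of every range from 2 to 8 kb. The intermediate class made up 4.87% of the peaks below 2 kb and 14.3% of those from 6 to 8 kb, and the peaks without H3K4me3 made up 5.17% below 2 kb and 24.7% from 4 to 6 kb. The strong-H3K4me3 class made up 86.8% of the peaks below 2 kb and 52.3% of those from 4 to 6 kb. A wide peak can touch a weak H3K4me3 peak more easily than a narrow one, and how much of the difference this makes up was not tested.

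At most sites the H3K4me3 lay inside the H3K27ac peak, with acetylation on both sides. Of the 1006 sites, 952 held 1 H3K4me3 peak, 50 held 2 and 4 held 3. At 995 sites (98.9%, interval 98.1 to 99.5%) all the H3K4me3 lay inside the H3K27ac peak. In the intermediate class this held for 1113 of 1165 peaks (95.5%, interval 94.2 to 96.6%). Over all H3K27ac peaks with H3K4me3 the share was 35.9%, and in the strong-H3K4me3 class it held for 2189 of 8741 peaks, with the H3K4me3 peak the wider one in 54.6%. Acetylation without H3K4me3 extended over a median of 1134 bp to the left and 1162 bp to the right of the H3K4me3. The left flank was the longer one at 507 sites (50.4%, interval 47.3 to 53.5%). Left and right are directions of the coordinates, not of a gene, so this share does not describe symmetry at single sites. The shorter flank had a median of 852.5 bp (interval 820 to 909 bp). Flanks of at least 500 bp on both sides were present at 79.2% of the sites (interval 76.6 to 81.7%) and at 55.3% of the intermediate class (interval 52.4 to 58.2%), against 13.3% of all H3K27ac peaks with H3K4me3. Low H3K4me3 scores, which chose the sites, go with narrow H3K4me3 peaks, and these lie inside a block with long flanks more easily. The shares inside and with flanks therefore follow in part from the choice of the sites.

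The centre of the H3K4me3 peak fell within the middle 50% of the acetylated block at 901 sites (89.6%, interval 87.5 to 91.4%). This was close to the 88.8% over all H3K27ac peaks with H3K4me3 and to the intermediate class with 1048 of 1165 (interval 88.1 to 91.6%), and below the 94.0% of the strong-H3K4me3 class (interval 93.4 to 94.4%). Within the middle 25% the sites stood at 59.8% (interval 56.7 to 62.9%), the intermediate class at 64.0% (interval 61.2 to 66.8%) and the strong-H3K4me3 class at 77.5% (interval 76.7 to 78.4%), against 69.2% over all H3K27ac peaks with H3K4me3. The distance between the centres of the marks, as a percentage of the distance from the centre of the H3K27ac peak to its edge, had a median of 19.1% (interval 17.2 to 21.1%), compared with 17.8% (interval 16.7 to 19.2%) in the intermediate class and 12.6% (interval 12.2 to 12.9%) in the strong-H3K4me3 class, with overlapping intervals for the sites and the intermediate class. Over all H3K27ac peaks with H3K4me3 the median was 15.2% (interval 14.9 to 15.5%), below that of the sites. Within the range from 2 to 3 kb of H3K27ac width the medians of the sites and the strong-H3K4me3 class were 15.6% and 11.0%. From 4 to 6 kb they were 23.4% and 13.6%. Median coverage by H3K4me3 was 33.3% and 96.5% in the first range and 17.6% and 83.6% in the second. An H3K4me3 peak that covers most of a block generally has less room to lie off its centre. The shares and distances of these classes are therefore not directly comparable, and the size of that effect was not tested.

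The widest sites show how small the H3K4me3 can be. The widest lay on chromosome 17 (15895935 to 15914326), with 18.4 kb of continuous H3K27ac and 1 H3K4me3 peak of 797 bp and a score of 81.65 (15898073 to 15898869), which covered 4.33% of it and began 2138 bp from its left edge. The next lay on chromosome 18 (15358370 to 15374993), with 16.6 kb of H3K27ac and an H3K4me3 peak of 1620 bp, and was the only member of the 10 widest to lie within 10 kb of H3K4me3 scoring 1000 or more, at 1.68 kb. The site on chromosome 13 (32749894 to 32765952) measured 16.1 kb and held an H3K4me3 peak of 1289 bp that scored 181.65. On chromosome 5 (98302553 to 98316763) the site measured 14.2 kb and its H3K4me3 peak, of 513 bp, covered 3.61%, the lowest coverage of all 1006 sites.

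The fifth, on chromosome 16 (93184810 to 93198902), measured 14.1 kb and had its H3K4me3 peak of 665 bp almost at the centre. It lay 358 kb from the nearest H3K4me3 peak scoring 1000 or more, and its stitched region held 109 kb of H3K27ac. The site on chromosome 6 (99243960 to 99257064) measured 13.1 kb and held 2 H3K4me3 peaks, 1 scoring 65.81 and 1 scoring 194.94. The remaining sites of the 10 widest lay on chromosome 3 (83863013 to 83875998, 13.0 kb), chromosome 8 (123279480 to 123292074, 12.6 kb), chromosome 13 (75869846 to 75882244, 12.4 kb) and chromosome 19 (25380777 to 25393001, 12.2 kb). In all 10 the H3K27ac score was 3100 and the H3K4me3 lay wholly inside, and the centre of the H3K4me3 peak lay between 4.90 and 72.5% of the way from the centre of the acetylated block to its edge.

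The 4 sites with 3 H3K4me3 peaks were also at the ceiling for H3K27ac. On chromosome 7 (121330594 to 121339979) the peaks scored 71.26, 84.84 and 54.98 and lay in the right part of a block of 9.39 kb. On chromosome 2 (170075854 to 170081595) they scored 176.56, 151.73 and 52.87, and the first ended 14 bp before the second began. The other two lay on chromosome 5, at 122667337 to 122672997 with scores of 51.57, 190.14 and 86.47, and at 118808205 to 118813761 with scores of 60.70, 112.38 and 73.60. In the block on chromosome 2 and in both blocks on chromosome 5 the H3K4me3 peaks lay around the centre of the H3K27ac peak.

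**Figure D3:**
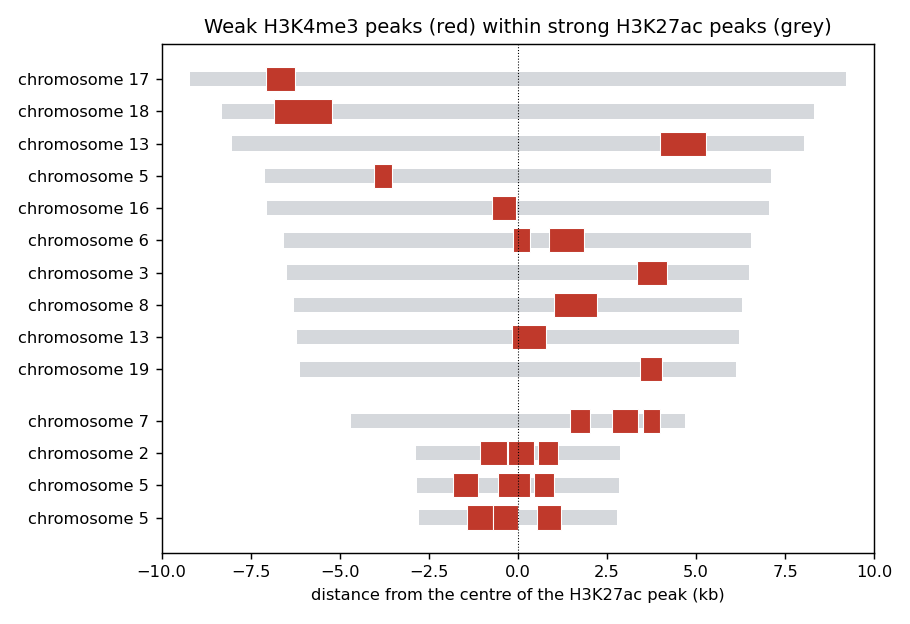
The 10 widest sites (upper rows, widest first) and the 4 sites with 3 H3K4me3 peaks (lower rows), aligned at the centre of the H3K27ac peak; the horizontal axis is the distance from that centre in kb. Grey bars are H3K27ac peaks of 5.56 to 18.4 kb and red bars the H3K4me3 peaks on them, of 461 to 1620 bp, each well inside the grey bar.

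At the other end of the range were sites at the H3K27ac ceiling whose H3K4me3 was barely called. The 10 with the lowest H3K4me3 scored 50.01 to 51.53 for H3K4me3 and were 3621 to 6432 bp wide. They included sites on chromosome 18 (38082422 to 38088203), chromosome 3 (32388528 to 32392148), chromosome 2 (150655093 to 150659052) and chromosome 15 (83429792 to 83435050). Their H3K4me3 peaks measured 495 to 813 bp. The most isolated of them, on chromosome 9 (24476175 to 24480231), had no other H3K27ac peak within 91.9 kb.

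The weak H3K4me3 peaks on these sites were wider than those on weaker H3K27ac or without H3K27ac. Their median width was 809 bp (interval 790 to 826 bp) for the 1064 peaks on the sites, 737 bp (interval 719 to 749 bp) for those on weaker H3K27ac only and 630 bp (interval 620 to 645 bp) for those without H3K27ac. The 300 weak peaks on strong H3K27ac outside the sites had a median of 778 bp (interval 751 to 802 bp), which overlaps the interval of the sites. The order of the first 3 groups held within ranges of score. At scores of 50 to 100 the medians were 661 bp (interval 641 to 677 bp), 625 bp (interval 608 to 639 bp) and 572 bp (interval 558 to 588 bp). At scores of 100 to 200 they were 942 bp (interval 919 to 964 bp), 849 bp (interval 827 to 869 bp) and 750 bp (interval 729 to 771 bp). Median scores in the lower range were 70.3, 67.4 and 68.4, and in the upper range 146, 142 and 135, highest on the sites in both. A peak must touch H3K27ac to be counted on a site, which favours wider peaks, and the size of that effect was not tested.

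The sites lay at about the same distance from other strong H3K4me3 as the intermediate and strong-H3K4me3 classes did, and nearer to it than strong H3K27ac peaks without H3K4me3. The median gap to the nearest other H3K4me3 peak scoring 1000 or more was 28.3 kb (interval 24.3 to 33.0 kb), against 25.2 kb (interval 22.8 to 28.4 kb) in the intermediate class, 29.9 kb (interval 29.1 to 30.9 kb) in the strong-H3K4me3 class and 36.6 kb (interval 33.4 to 39.8 kb) for peaks without H3K4me3. Within 10 kb of such a peak were 253 sites (25.1%, interval 22.5 to 28.0%), compared with 22.7% of all H3K27ac peaks, 26.2% of the intermediate class (interval 23.7 to 28.8%), 21.6% of the strong-H3K4me3 class (interval 20.7 to 22.5%) and 21.0% of the peaks without H3K4me3 (interval 19.3 to 22.7%). The interval of the sites includes the share of all H3K27ac peaks. Within 5 kb the sites stood at 15.4% (interval 13.2 to 17.8%), near the 14.8% of the intermediate class (interval 12.8 to 16.9%) and above the 10.7% of the strong-H3K4me3 class (interval 10.0 to 11.4%) and the 11.4% of peaks without H3K4me3 (interval 10.2 to 12.8%), by intervals that do not overlap. At the far end, 205 sites (20.4%, interval 17.9 to 23.0%) were more than 100 kb from strong H3K4me3, compared with 22.1% of all H3K27ac peaks and 27.2% of the peaks without H3K4me3 (interval 25.4 to 29.1%).

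Called peaks can be pieces of 1 longer block. Of the sites, 301 (29.9%, interval 27.1 to 32.9%) had another H3K27ac peak within 1000 bp, compared with 25.1% of all H3K27ac peaks. At 46 sites (4.57%, interval 3.37 to 6.05%) such a neighbour overlapped H3K4me3 scoring 1000 or more, compared with 6.33% of all H3K27ac peaks. With H3K27ac peaks within 1000 bp joined first, 928 sites met the rule and 22.0% of them lay within 10 kb of strong H3K4me3, below the 25.1% of the deposited peaks.

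The sites, like the intermediate class and the peaks without H3K4me3, lay closer to other acetylated peaks than the strong-H3K4me3 class did. The nearest other H3K27ac peak stood 3.05 kb away in the median (interval 2.56 to 3.45 kb), against 10.1 kb (interval 9.70 to 10.6 kb) in the strong-H3K4me3 class and 2.78 kb (interval 2.51 to 3.14 kb) for peaks without H3K4me3. In the intermediate class it stood 3.70 kb away (interval 3.27 to 4.27 kb), which overlaps the interval of the sites. When all H3K27ac peaks within 12.5 kb of each other were stitched into regions, 201 sites (20.0%, interval 17.6 to 22.6%) were the only peak of their region. That share was 33.9% over all H3K27ac peaks, 44.8% in the strong-H3K4me3 class (interval 43.7 to 45.8%) and 21.4% for peaks without H3K4me3 (interval 19.7 to 23.1%). In the intermediate class it was 23.1% (interval 20.7 to 25.6%).

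Long stitched regions, with more than 11.2 kb of summed H3K27ac, held 359 sites (35.7%, interval 32.7 to 38.7%). This compared with 21% of all H3K27ac peaks, 16.6% of the strong-H3K4me3 class (interval 15.9 to 17.4%) and 37.3% of the peaks without H3K4me3 (interval 35.3 to 39.3%). The intermediate class stood near the sites, at 33.7% (interval 31.0 to 36.5%). A wide site adds its own length to its region. With that length left out, 23.3% of the sites (interval 20.7 to 26.0%), 10.3% of the strong-H3K4me3 class (interval 9.64 to 10.9%) and 27.3% of the peaks without H3K4me3 (interval 25.4 to 29.2%) remained in long regions. In the intermediate class 20.3% remained (interval 18.1 to 22.8%), an interval that overlaps that of the sites. Among peaks of 3 to 4 kb the shares without the own length were 21.0% (interval 16.2 to 26.5%), 10.2% (interval 8.72 to 11.9%) and 26.7% (interval 23.2 to 30.4%). The intermediate class stood at 17.4% there (interval 13.0 to 22.5%). The interval of the sites lay above that of the strong-H3K4me3 class in this range and overlapped those of the intermediate class and of the peaks without H3K4me3. At 6 to 8 kb the sites and the strong-H3K4me3 class no longer differed beyond their intervals, with 32.9% (interval 22.9 to 44.2%) and 30.9% (interval 25.9 to 36.2%), and at 8 kb or more, with 49.0 and 38.4%, the intervals overlapped as well. Of the 1032 long regions, 314 (30.4%) held at least 1 site, compared with 945 of all 16134 stitched regions. Long regions hold more summed H3K27ac by definition, so the higher share follows in part from how they were chosen.

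**Figure D4:**
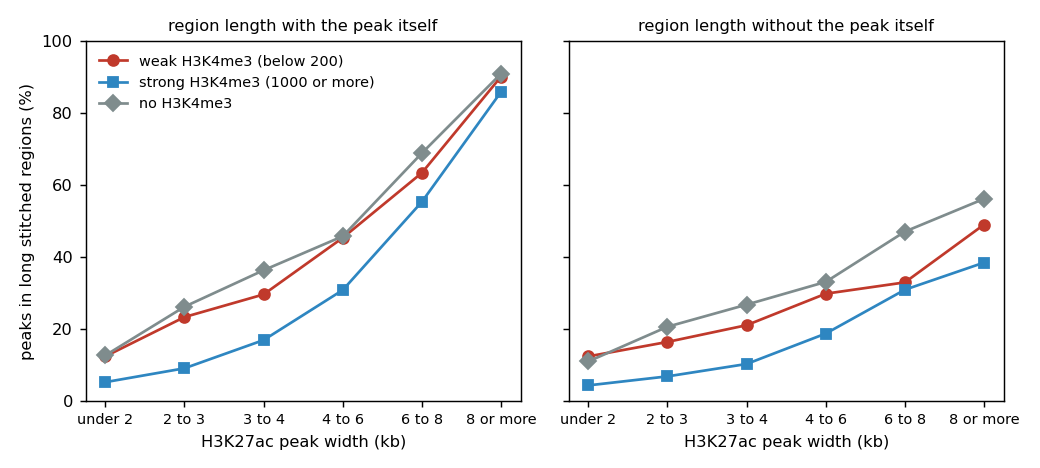
Percentage of strong H3K27ac peaks that lay in long stitched regions (vertical axis), by H3K27ac peak width in kb (horizontal axis), counting the peak's own length (left) or not (right). Red circles are sites with weak H3K4me3, blue squares the strong-H3K4me3 class and grey diamonds peaks without H3K4me3. At 3 to 4 kb on the right they stand at 21.0, 10.2 and 26.7%. The intermediate class, which is not drawn, stood at 17.4% there.

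The stitched regions that held a site numbered 945, and most held only 1. In 57 there were 2 or more sites, and 4 regions held 3, the most in any region. Those 4 lay on chromosome 7 (139847673 to 139957353, 14 H3K27ac peaks with 71.2 kb in sum), chromosome 5 (66282144 to 66351949), chromosome 9 (45043311 to 45109576) and chromosome 1 (130547877 to 130608167). H3K4me3 scoring 1000 or more was present in 375 of the 945 regions (39.7%, interval 36.6 to 42.9%), and 402 sites lay in these. The other 604 sites had no strong H3K4me3 in their stitched region. The share of sites in a region with strong H3K4me3 was 40.0% (interval 36.9 to 43.1%). That of the intermediate class was 41.8% (interval 39.0 to 44.7%) and that of the peaks without H3K4me3 36.3% (interval 34.3 to 38.3%). No share over all stitched regions or over all H3K27ac peaks was set beside these. Whether the sites differ from that background was therefore not tested.

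Most sites had no other site within 50 kb. Another site lay within that distance for 171 (17.0%, interval 14.7 to 19.5%). The share was 22.0% among the 1165 peaks of the intermediate class (interval 19.6 to 24.5%) and 42.4% among the 2255 peaks without H3K4me3. A class with fewer peaks has fewer neighbours of its own kind, so these shares are not directly comparable. Whether the sites lie nearer to each other than randomly placed peaks would was not tested. The largest groups within 50 kb steps had 4 sites, on chromosome 3 (126388647 to 126474964, H3K4me3 scores 54.87 to 145.16) and chromosome 1 (130509269 to 130603324, H3K4me3 scores 59.89 to 107.81). The group on chromosome 1 contained no H3K4me3 peak scoring 1000 or more, and that on chromosome 3 contained 1.

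The sites were present on all autosomes. As a share of the strong H3K27ac peaks of each chromosome they made up between 6.01% on chromosome 8 (interval 4.26 to 8.18%) and 9.96% on chromosome 6 (interval 7.86 to 12.4%). Chromosome 6 was the only autosome whose interval did not include the overall 7.64%. The X chromosome had 10 sites among 313 strong peaks (3.19%, interval 1.54 to 5.80%), an interval wholly below the overall share. Its share of strong-H3K4me3 peaks was 74.4% (interval 69.2 to 79.2%), compared with 66.4% of all strong peaks. On the X chromosome 14.7% of the strong peaks had no H3K4me3, compared with 17.1% of all. The intervals were not adjusted for the number of chromosomes compared, so some can miss the share of all strong peaks by chance. Domains with 50 or more H3K27ac peaks without H3K4me3 per Mb numbered 2. They lay on chromosome 6 (68 to 70 Mb) and chromosome 12 (115 to 117 Mb). In them 136 of 154 and 133 of 145 H3K27ac peaks had no H3K4me3, which follows in part from how the domains were chosen. Of all 29468 H3K27ac peaks, 15409 had H3K4me3. In the domains 8 of 61 strong peaks on chromosome 6 and 3 of 43 on chromosome 12 were sites with weak H3K4me3. Among all strong peaks it was 1006 of 13167. A further 2 sites lay on sequence assigned to chromosome 17 but not placed on it.

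**Figure D5:**
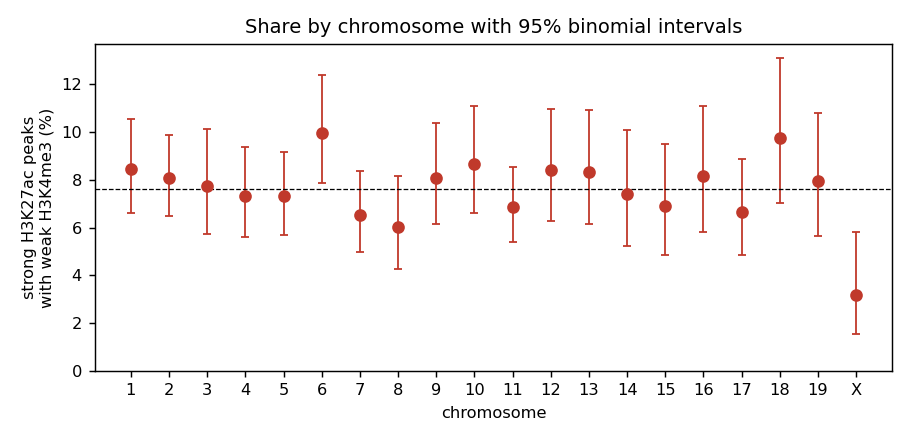
Percentage of the strong H3K27ac peaks of each autosome and the X chromosome that were sites with weak H3K4me3 (points) with exact 95% binomial intervals (bars); the dashed line is the overall share of 7.64%. The X chromosome, at 3.19%, is the lowest of those drawn, and its interval lies below the line.

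The sites at the H3K27ac ceiling were larger than those below it and lay in long regions more often. The 419 sites at or above 3100 had a median H3K27ac width of 4922 bp (interval 4610 to 5147 bp), against 2742 bp (interval 2664 to 2849 bp) for the other 587, as the relation of score and width gives. Their H3K4me3 covered 18.1% and 28.6% of the acetylated length. With the own length of a site left out, 30.1% and 18.4% of them lay in long regions. The gap to strong H3K4me3 had medians of 29.9 kb (interval 23.5 to 36.5 kb) and 27.2 kb (interval 23.4 to 34.0 kb), with overlapping intervals. Likewise, sites with H3K4me3 below 100 and at 100 or more had gaps of 31.5 kb (interval 24.3 to 38.6 kb) and 26.2 kb (interval 23.1 to 31.2 kb).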

How the data were processed

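ChIP-seq was made by the authors in 3 samples (H3K27ac, H3K4me3, IgG), grouped by sample titles. Peaks were called with MACS on mm9, per the submitters' processing notes, with aligner, filters and depth not given in the sources used here. Deposited values are 1 score per peak from 1 library per mark, with no pooling; neither a header nor a label defines the score. It was used only to choose, rank and describe peaks. Positions are counted from 1.

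Overlap (1 bp), gaps between peak edges and stitching within 12500 bp were computed in Python 3.11.15 with NumPy 2.4.6, pandas 2.3.3 and SciPy 1.17.1. Long regions have a summed length beyond that at which the rank curve, with both axes scaled to their maximum, reaches a slope of 1. The assignment to classes and the gaps were tested on 2000 simulated peaks, with 0 wrong classes and 0 wrong distances. Each simulated peak held at most 1 H3K4me3 peak, lying wholly inside, and the peaks were too far apart to be stitched. Several or partly overlapping H3K4me3 peaks, the joining of peaks into regions and the limit for long regions were therefore not tested. Sites, classes and limits were chosen with earlier results of these data known. Peaks are named by rule: the 10 widest, the 5 nearest to each limit on either side (of which the nearest are printed), those with most H3K4me3 peaks, and the 10 lowest in H3K4me3 at the ceiling. Regions or groups with 3 or more sites were picked once their values were known. The planned analyses of start sites, gene lists and motifs were not made, for want of an mm9 reference here. Alternatives covered both score limits, the overlap, the distances and the chromosomes used.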

Additional observations from a re-analysis of the deposited data

How the results depend on the processing

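The 6 main values were recomputed in 47 ways: 26 results lay inside the reported 95% interval (counts of sites: within 1.5 times) and 21 lay outside it; no alternative has a direction to reverse. Changing the limits changes the number of sites by construction: 644 with an H3K27ac minimum of 2000, 494 with an H3K4me3 limit of 100 and 1546 with 400. The median H3K27ac width became 2917 bp with a minimum of 500, 4111 bp with 2000 and 3664 bp with peaks within 1000 bp joined, a step added after the data were seen. The median coverage became 27.6, 20.3 and 22.6% under the same settings, 20.2% with an H3K4me3 limit of 100 and 28.4% with 400. The share of sites with all H3K4me3 inside became 97.9% with an H3K27ac minimum of 500. The share within 10 kb of strong H3K4me3 became 15.4% at 5 kb, 47.3% at 25 kb, 33.4% and 21.2% with neighbours scoring 200 or 3100 or more, and 22.0% with peaks joined. The share in long regions became 31.4% and 42.5% with H3K27ac minima of 500 and 2000, 25.6% with stitching within 5000 bp and 23.3% without the site's own length. Autosomes only, or a shared length of 50% of the shorter peak, moved no value. The alternatives on start sites and sequence windows were not run. No paired analysis was possible because each mark has 1 library. Depth is unknown, so weak H3K4me3 cannot be told apart from H3K4me3 that a deeper library would score higher.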
